A study of Drosophila melanogaster with 4 samples.

Results

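The brains of untreated female and male *Drosophila* were compared, 1 single-nucleus library of each sex and 2 of the 4 libraries in the series. Both came from flies of the laboratory strain *w1118* Canton S (B), which the sample labels give as Canton S (B) and which is abbreviated CSB; *w1118* is a mutant allele of *white*, an eye pigment transporter gene. The flies spent 6 days on medium without arsenic, and 10 brains per sex were pooled, flash frozen and taken as nuclei into 10x droplets. The other 2 libraries, female and male CSB flies on 250 µM NaAsO2 (sodium arsenite) for the same 6 days, are used below only as a second female and male pair. The control pair held 34083 of the 69415 nuclei, 19188 from females and 14895 from males. Values are counts of unique molecular identifiers (UMIs), which count captured transcript molecules rather than reads. For each gene they were summed over all nuclei of a library and scaled to the total of that library as CPM (UMIs per 1000000). The measure compared is the log2 ratio of female over male CPM, and 7992 of 17772 genes reached the minimum of 200 UMIs over both libraries. Since each sex had 1 library of pooled brains, the sex of the flies and the library cannot be told apart, no p-value was computed, and the 95% intervals given are exact and cover counting error only.

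In *Drosophila*, females carry a pair of X chromosomes and males carry 1 X and a Y. *Sxl*, an RNA-binding protein made in its active form in females, directs the splicing of *tra*, and Tra with Tra2 directs the sex-specific splicing of *dsx* and *fru*, the transcription factors that shape sexual differentiation and courtship circuits. In females Sxl also blocks the making of Msl-2. In males Msl-2 assembles with Msl-1, Msl-3, the helicase Mle, the histone acetyltransferase Mof and the noncoding RNAs roX1 and roX2 into a complex that coats the X chromosome and raises its transcription, a process called dosage compensation. Outside the nervous system, the adult fat body, some of which lies in the head, makes the yolk proteins in females.

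The female library was the deeper of the pair, with 53360256 UMIs, against 33235404 in the male library. The median nucleus had 2222 UMIs from 1042 genes in females and 1827 UMIs from 953 genes in males. The lowest nucleus had 500 UMIs in both, and 84 cell barcodes occurred in both libraries, within the range of 45 to 135 over all pairs of libraries. The labelled tissue was checked with marker genes after each nucleus was thinned to 1000 UMIs, which kept 17470 female and 12478 male nuclei. At least 2 of 5 neuronal markers were detected in 98.3% of female and 97.1% of male nuclei, and at least 2 of 9 muscle markers in 0 female nuclei and 1 male nucleus. The libraries stood apart in several marker lists, most of all in those of cells that adjoin the brain or belong to the visual system. Nuclei with at least 2 of 15 photoreceptor markers made up 5.12% (4.80 to 5.46) in females and 12.3% (11.7 to 12.9) in males. Those with 2 of 6 fat body markers made up 2.12% (1.91 to 2.35) and 4.87% (4.50 to 5.27), and those with 2 of 5 plasmatocyte markers, which mark blood cells, 0.464% and 1.04%. Of the glial lists, cortex glia markers were found in 2.42% (2.19 to 2.65) of female and 3.89% (3.56 to 4.25) of male nuclei and subperineurial glia markers in 0.343% (0.262 to 0.442) and 0.665% (0.530 to 0.824). Within nuclei with *elav*, fat body markers reached 1.90% and 4.07%, so their transcripts were not held to nuclei without the neuronal gene. Summed over the list, photoreceptor markers stood at 1020 CPM in the female and 2561 CPM in the male library, and fat body markers at 686 and 2109 CPM. In the NaAsO2 pair the order was turned, with photoreceptor markers at 1256 CPM in females and 951 CPM in males and fat body markers at 987 and 777 CPM. That pair also differed in depth, since its lowest nucleus had 500 UMIs in the female and 1766 in the male library. Over summed nuclei, fewer cells of a type and less RNA per cell cannot be told apart.

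**Figure D1:**
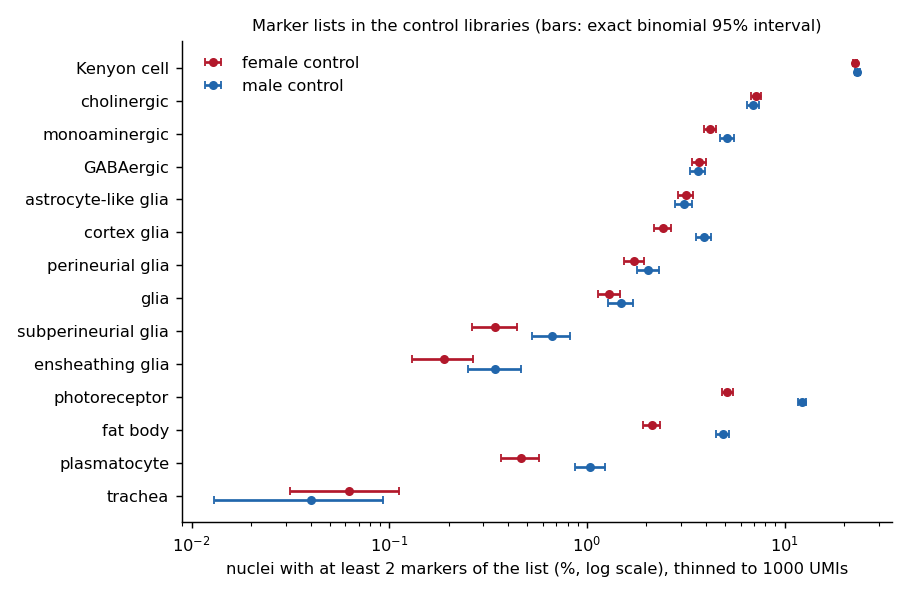
Percentage of nuclei (log axis) in which at least 2 genes of a marker list were detected after thinning to 1000 UMIs, in the female and the male control library; bars are exact binomial 95% intervals. Kenyon cell, cholinergic, GABAergic and astrocyte lists lie close together in both sexes, while photoreceptor, fat body and plasmatocyte lists are higher in the male library (12.3% against 5.12% for photoreceptor markers).

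Most genes differed by less than 1.5-fold between the sexes. Of the 7992 genes, 141 (1.76%) were at least 1.5-fold higher in females and 838 (10.5%) at least 1.5-fold higher in males. This split depended on the scale, because the median gene lay at a log2 ratio of -0.13: relative to the median autosomal gene, 339 genes were 1.5-fold higher in females and 453 in males, and with TMM factors 311 and 476. Ratios below are on the CPM scale unless stated. In nuclei with the neuronal gene *elav* and without *repo*, here called *elav* nuclei, 117 of 7466 genes (1.57%) passed the 1.5-fold limit toward females and 740 (9.91%) toward males. In nuclei with the glial gene *repo* and without *elav*, here called *repo* nuclei, 91 of 1095 genes (8.31%) and 94 (8.58%) did so, and in nuclei with neither, 126 of 5158 (2.44%) and 305 (5.91%).

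The noncoding RNAs of dosage compensation were far higher in males, in both pairs and in every class of nuclei. *roX1* (chrX:3857230-3862697, release 6) was at 93.9 CPM in the female and 16386 CPM in the male control library, and at 115 and 22102 CPM in the NaAsO2 pair. The male library was higher in both pairs, and the control ratio was -7.45 (-7.49 to -7.41), or 174-fold. The ratio was -7.51 in *elav* nuclei and -6.69 in *repo* nuclei. *roX2* (chrX:11579065-11580432) stood at 6.32 CPM in females and 4189 CPM in males, a ratio of -9.37 or 663-fold, and at -8.68 in the NaAsO2 pair. Per nucleus, the median male nucleus held 31 *roX1* UMIs and the median female nucleus 0. After thinning, *roX1* was detected in 99.99% of male nuclei, and 2 of all 14895 male nuclei had none. In the female library 16.5% of nuclei had a *roX1* UMI (8.33% after thinning), at most 36 in a nucleus. *roX1* took at least 0.5% of the UMIs in 4 female nuclei and in 14797 male nuclei (99.3%). A droplet library also captures free RNA, so that female share is not read as the share of nuclei that express *roX1*. The source of the *roX1* UMIs in the female library was not tested.

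The protein subunits of the complex lay near equality. *msl-2* was at 22.0 CPM (20.8 to 23.3) in females and 17.5 CPM (16.1 to 18.9) in males, a ratio of 0.34 that was 0.41 in the NaAsO2 pair, so its transcript was more abundant in the sex in which Sxl blocks its translation. *msl-1* stood at -0.02, *mle* at -0.03, *mof* at 0.13 and *msl-3* at -0.28. The adaptor *Clamp*, the kinase *JIL-1* and *Unr*, which acts with Sxl on *msl-2* RNA, had ratios of -0.14, -0.25 and 0.17. Of the 10 dosage compensation genes, all passed the UMI minimum, and only the roX RNAs exceeded 1.5-fold. Of all genes, 10.5% did so toward males and 1.76% toward females.

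**Figure D2:**
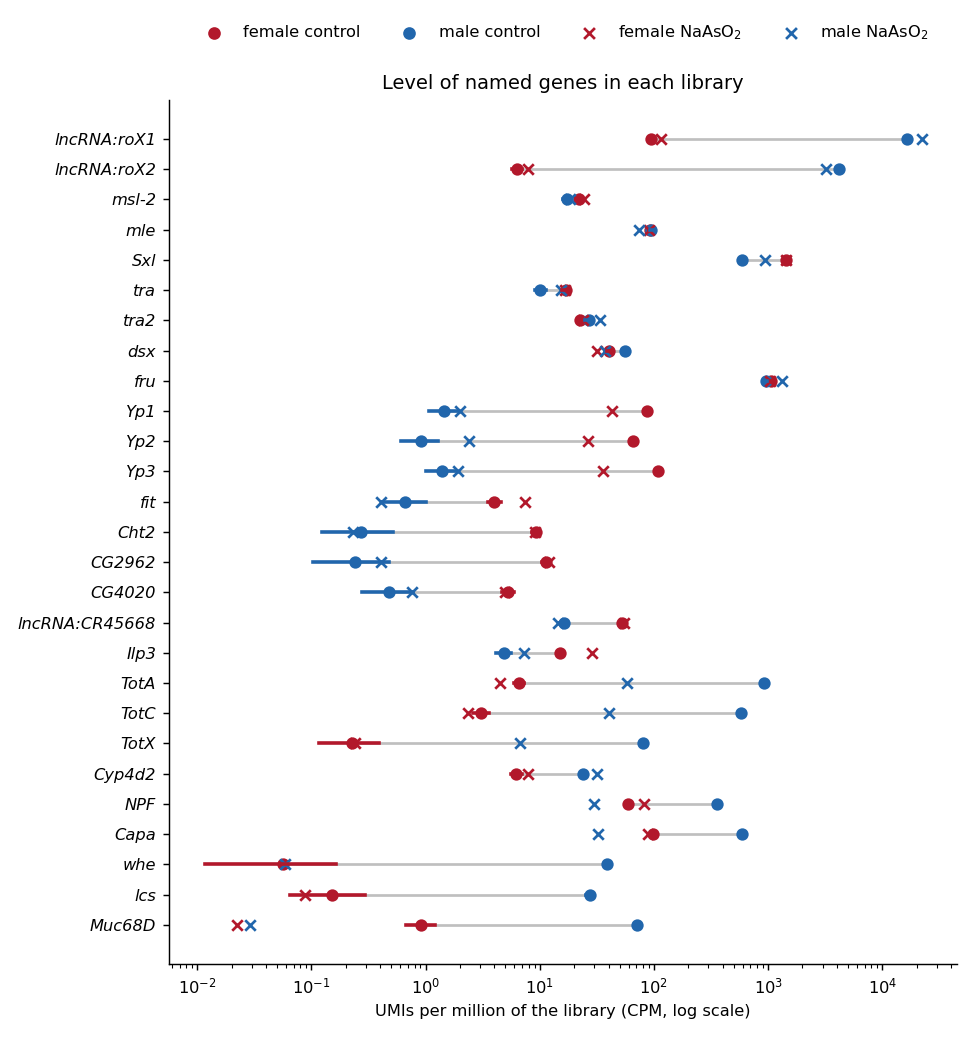
Level in CPM (log axis) of sex-linked and sex-different genes in each library: filled circles are the control pair, crosses the NaAsO2 pair, red females and blue males, with exact Poisson 95% intervals of the control pair as coloured bars; a gene at 0 UMIs in a library has no symbol there. *roX1* lies at 93.9 CPM in the female and 16386 CPM in the male control library, *Yp1* at 86.2 and 1.44 CPM, and *TotA* at 6.62 and 923 CPM.

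X-linked genes were shifted toward females relative to autosomal genes by a small amount. The median ratio was 0.0037 (-0.023 to 0.037) over 1377 X-linked genes and -0.15 (-0.17 to -0.14) over 6506 autosomal genes with UMIs in both libraries; these intervals are order statistics over genes, which are not replicates. The difference was 0.16, or a ratio of 1.12. The autosomal arms lay together, at -0.17 for 2L, -0.17 for 2R, -0.14 for 3L and -0.14 for 3R, and the small chromosome 4 lay between them and the X at -0.06 (86 genes). The X minus autosome difference was 0.16 in *elav* nuclei, 0.22 in *repo* nuclei, 0.17 in nuclei with neither gene and 0.17 in nuclei with at least 3 fat body markers. It was 0.17 without the nuclei of photoreceptor, fat body and plasmatocyte markers. In the NaAsO2 pair it was 0.05. The X held 73 (5.30%) genes that were at least 1.5-fold higher in females, against 60 (0.922%) on the autosomes. Relative to the autosomal median, 29 of 1376 X-linked genes other than roX (2.11%) were 2-fold higher in females, against 18 of 6507 autosomal genes (0.277%).

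**Figure D3:**
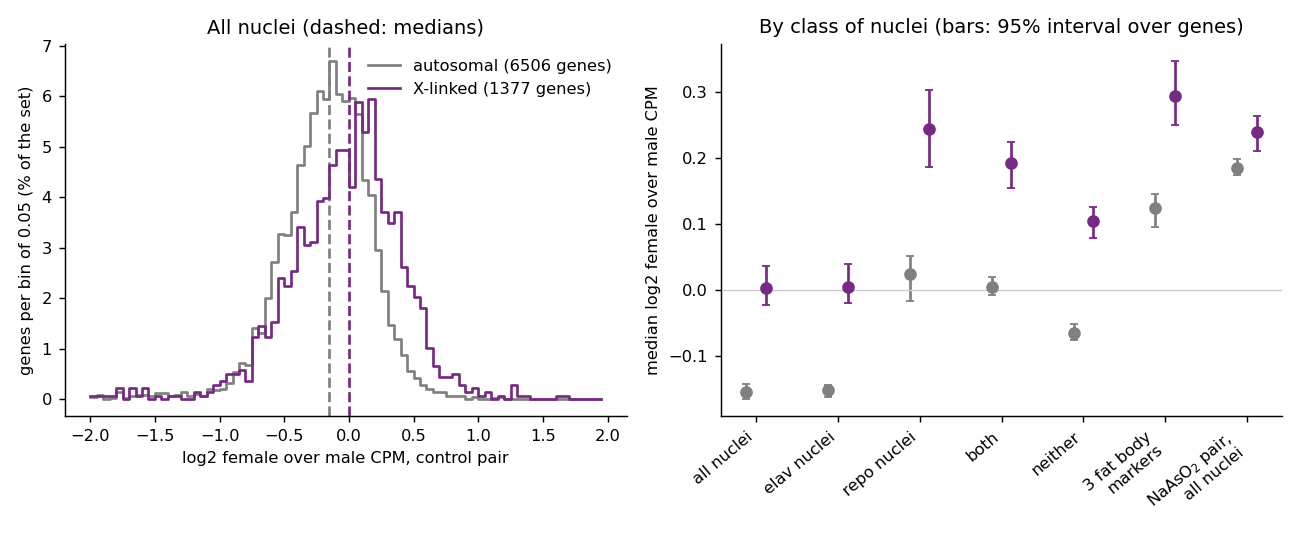
Left, distribution over genes of the log2 ratio of female over male CPM in the control pair for X-linked and autosomal genes, in bins of 0.05 with dashed lines at the medians (0.0037 and -0.15). Right, median ratio of X-linked and autosomal genes by class of nuclei, and for all nuclei of the NaAsO2 pair, with 95% order-statistic intervals over genes; the X lies above the autosomes in every class of control nuclei drawn, by 0.16 in all nuclei.

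In the control pair the size of this difference varied with gene length. In 5 groups of equal number from the shortest genes (up to 1465 bp) to the longest (from 11132 bp), the autosomal median ran from -0.40 over -0.22, -0.15 and -0.06 to 0.03, so short genes were higher in the male library. The X median ran from -0.36 to 0.23. The X minus autosome difference was 0.04, 0.09, 0.09, 0.13 and 0.20 from the shortest to the longest group. In the NaAsO2 pair it was 0.096, 0.038, 0.015, 0.043 and 0.12 in the same groups, without a steady rise. Across 6507 autosomal genes, length and ratio had a Spearman correlation of 0.40 in the control pair and -0.30 in the NaAsO2 pair; every gene shares the same libraries, and the value is a description. Averaged within length groups, a calculation added after the data were seen, the X minus autosome difference of the control pair was 0.11. By abundance, it was 0.02 in the group of fewest UMIs and 0.12 to 0.18 in the others.

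**Figure D4:**
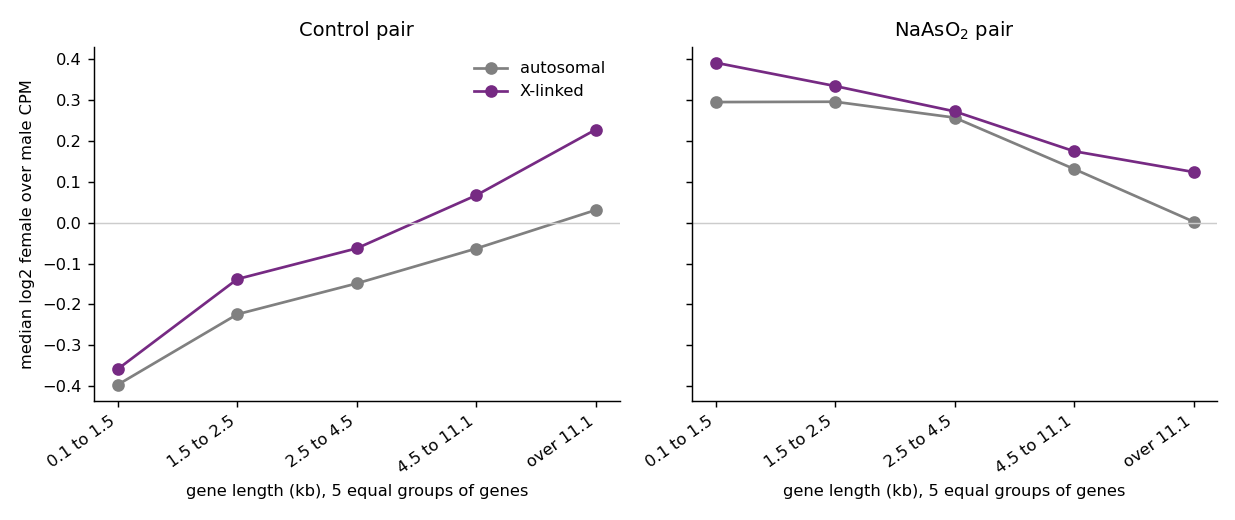
Median log2 ratio of female over male CPM in 5 groups of gene length (kb), for X-linked and autosomal genes of the control and the NaAsO2 pair. In the control pair the autosomal median climbs from -0.40 to 0.03 with length, and in the NaAsO2 pair it declines from 0.30 to 0.0027.

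Genes near the roX loci, which are known as sites where the complex enters the X, were also examined. The 27 genes that start within 100 kb of *roX1* or *roX2* had a median of -0.16 (-0.32 to -0.08), below the 0.0038 (-0.024 to 0.038) of the 1175 genes farther than 1000 kb. Genes at 100 to 500 kb had a median of 0.03 (103 genes) and those at 500 to 1000 kb 0.10 (71 genes). The nearest neighbours of *roX1* with enough UMIs were *yin* at -0.38 and *CG2930* at -0.06 on 1 side and *ec* at -0.62 and *HIP* at -0.32 on the other. On 1 side of *roX2*, *CG11695* stood at -0.16, *e(y)2* at -0.45, *CG11696* at -0.37 and *CG11699* at -0.42, and the next gene, *Polr2A*, at 0.09. On the other side *rho-4* stood at -0.20, *CG2247* at -0.16, *CG1703* at -0.23, *RPA3* at -0.55 and *Met* at 0.37. In the NaAsO2 pair the median of the same 27 genes was 0.21, close to the 0.24 beyond 1000 kb, so the order was not seen there. The nearby genes had a median length of 4066 bp and the far ones 3549 bp.

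Of the sex determination genes, *Sxl* and *tra* were higher in females, while *dsx* and *fru* differed by less than 1.5-fold over all nuclei. *Sxl* (chrX:7074550-7098053) stood at 1426 CPM in females and 591 CPM in males in the control pair, and at 1421 and 942 CPM in the NaAsO2 pair. Its control ratio was 1.27 (1.25 to 1.29), and 1.28 in *elav* nuclei, and the 10 nuclei with most *Sxl* held 2.13% of its UMIs in females and 1.74% in males, so it was spread over many nuclei. The ratio in the NaAsO2 pair was 0.59. *tra* was at 16.8 CPM (15.7 to 17.9) in females and 10.1 CPM (9.03 to 11.2) in males, a ratio of 0.74 against 0.10 in the NaAsO2 pair; its locus adjoins *l(3)73Ah*. *tra2* had a ratio of -0.25. *dsx* was at 40.3 CPM in females and 55.9 CPM in males (-0.47; NaAsO2 pair -0.25), and *fru*, at 1063 and 965 CPM, had ratios of 0.14 and -0.34. In classes of nuclei both passed 1.5-fold, *dsx* toward males in *elav* nuclei (-0.64, interval -0.77 to -0.50) and *fru* toward females in *repo* nuclei (0.67). Gene counts do not separate the female and male splice forms of these genes. Of all 15 genes of the list, which includes the m6A methyltransferase subunits that act in *Sxl* splicing, 2 were 1.5-fold higher in females, beside 1.76% of all genes, and 1 in males, *Mettl3* at -0.68, beside 10.5%. The spliceosomal gene *snf* had ratios of opposite sign in the control (-0.35) and NaAsO2 (0.95) pairs.

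Y-linked genes did not separate the sexes by their sum. Of 123 annotated Y genes, 32 had a UMI, 24 of them in the male library only, 8 in both and 0 in the female library only. The Y total was 667 UMIs in females and 489 in males, or 12.5 and 14.7 CPM, and all female UMIs fell on the 8 shared genes. *ORY* had 170 female and 48 male UMIs (a ratio of 1.14) and *Ppr-Y* 147 and 64 (0.52), while *kl-3* had 73 and 80 (-0.82). These are testis-expressed genes with very long introns. The most abundant male-only gene was *Su(Ste):CR42418*, with 27 UMIs against 0. How UMIs came to be assigned to Y genes in a female library was not tested.

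The yolk protein genes were far higher in females in both pairs. *Yp1* stood at 86.2 CPM in the female and 1.44 CPM in the male control library and at 42.9 and 1.98 CPM in the NaAsO2 pair. *Yp2* stood at 65.5 and 0.903 CPM, and *Yp3* at 109 and 1.38 CPM. Their control ratios were 5.90, 6.18 and 6.30, and those of the NaAsO2 pair 4.43, 3.45 and 4.23, so females were higher in both pairs. The transcripts were concentrated in few nuclei: 86 female nuclei with at least 20 yolk protein UMIs held 62.7% of them, and 77 of these carried at least 3 fat body markers. Among nuclei with at least 3 fat body markers, 235 female and 349 male, the mean was 39.2 yolk protein UMIs per female nucleus and 0.0860 per male nucleus, and the ratios were 7.52, 7.61 and 7.47. This excess therefore stood against a lower share of fat body nuclei in the female library. *fit*, a female fat body gene that responds to protein feeding, had 214 female and 22 male UMIs (2.60; NaAsO2 pair 4.19). The odorant-binding protein gene *Obp99b*, known for male-biased fat body expression, had 4 and 368 UMIs (-7.21), and within fat body marker nuclei its ratio was -8.14. In the NaAsO2 pair *Obp99b* had 7 female UMIs and 0 male UMIs. The other sex-biased genes of the adult head on the list, *Obp99a* (22 and 2 UMIs), *to* (10 and 2), *Cyp4d21* (2 and 22) and *sxe2* (48 and 76), stayed under the minimum of 200 UMIs, as did all 7 germline genes.

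Several female-higher genes were counted at similar levels in both female libraries, and some of them were nearly absent from both male libraries. The noncoding RNA *asRNA:CR45629* (chrX:10217627-10219303) had 1226 UMIs in the female and 0 in the male control library, at least 255-fold higher against a limit of 3 male UMIs, and 1100 and 2 UMIs in the NaAsO2 pair. Its neighbour *CG2962* (chrX:10214858-10216642), 984 bp away, was at 11.4 and 0.241 CPM (5.56) and at 12.1 and 0.408 CPM in the NaAsO2 pair. Of 6 flanking genes within 25 kb that passed the minimum, 0 exceeded 1.5-fold (-0.16 to 0.58). Another pair of neighbours, *lncRNA:CR45668* (chrX:5882480-5899989) and *CG4020* (chrX:5905746-5908001), stood at 52.9 against 16.4 CPM (1.69) and 5.28 against 0.481 CPM (3.46), and *Act5C*, which lies between them, at a ratio of 0.01. The former was thus present in males too, at 14.5 CPM in the NaAsO2 library. In the NaAsO2 pair the ratios were 1.92 and 2.71. These neighbours were singled out after their values were seen. Strand-specific counting is not stated, and *asRNA:CR45629* overlaps *CG15308* and *CG2962* overlaps *ATPsyndelta*, so their reads may be shared. The UMIs of these genes were spread thinly, at most 5 in any nucleus for *asRNA:CR45629* over 1108 nuclei. On the autosomes, the chitinase gene *Cht2* was at 9.28 CPM in females and 0.271 CPM in males (5.10) and at 9.04 and 0.233 CPM in the NaAsO2 pair (5.28); it overlaps *CG13921*. The ribosomal RNA precursor *pre-rRNA:CR45845*, annotated on the X and the Y, had 6554 and 63 UMIs (6.02; NaAsO2 pair 3.86). Past *Cht2*, *fit* and *Ilp3*, the autosomal genes with the highest ratios reached at most 1.27, among them *phu*, an alkaline phosphatase gene (1.27), *sas* (1.17) and *b*, which serves the making of beta-alanine (1.13).

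The Turandot genes, which encode secreted proteins of the humoral stress response made by the fat body, were among the autosomal genes with the largest male excess. *TotA* stood at 6.62 CPM in females and 923 CPM in males, and at 4.50 and 57.9 CPM in the NaAsO2 pair. *TotC* stood at 3.05 and 581 CPM, and *TotX* at 0.225 and 79.6 CPM. The control ratios were -7.12, -7.57 and -8.47, with -4.69 for *TotM*, and those of the NaAsO2 pair -3.69, -4.09, -4.78 and -4.66, so males were higher in both. These UMIs came from few nuclei. In the male library, 110 nuclei with at least 20 Turandot UMIs held 83.2% of them, and 101 of these carried 3 fat body markers; 10 nuclei held 70.4% of *TotA*, 1 of them 8701 UMIs. Among nuclei with 3 fat body markers the mean was 132 Turandot UMIs in males and 1.17 in females, and the ratios were -8.07, -8.60 and -9.06 for *TotA*, *TotC* and *TotX*. The nuclei that carried them also led in *CG2233*, *Nplp2*, *Obp99c* and the immune peptide gene *BomBc2*. *CG2233* was at 31.6 and 251 CPM (-2.99; NaAsO2 pair -0.46), and the sterol-binding gene *Npc2h* had 11 and 426 UMIs (-5.96; -6.40 within fat body marker nuclei). Of 12 heat shock and Turandot genes that passed, 7 were 1.5-fold higher in males and 0 in females, beside 10.5% and 1.76% of all genes. The 4 Turandot genes were among these 7. In the NaAsO2 pair 5 of the 12 were 1.5-fold higher in females and 4, the Turandot genes, in males, beside 13.8% and 2.33% of all genes. All 3 antimicrobial peptide genes that passed were higher in control males, the *Bom* genes *BomBc3* (-2.64) and *BomS2* (-1.79) among them.

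A further male-higher group had most of its UMIs in few nuclei. The genes *whe*, *lcs*, *CG16826*, *CG14125*, *CG3906*, *Muc68D*, *CG34324* and *CG32726* were brought together after their values were seen. *whe* had 3 female and 1294 male UMIs (-9.44), *lcs* 8 and 907 (-7.51), and *Muc68D*, a mucin gene, 49 and 2372 (-6.28). *CG16826* had 0 and 889 UMIs, at least 476-fold higher in males, of which 740 lay in 1 nucleus. Likewise, 1 male nucleus held 702 of the *whe* UMIs, 1 held 577 of *lcs* and 1 held 1024 of *Muc68D*. In the male library, 74 nuclei with UMIs of at least 3 of the 8 genes held 7556 of their 9066 UMIs (83.3%), and 8 such nuclei occurred in the female library. The nuclei were chosen by the same genes, so this share is partly set by the choice. Male nuclei with at least 3 photoreceptor markers held 805 *whe* and 665 *lcs* UMIs, but 155 of *Muc68D*. The 74 nuclei had a median of 1766 UMIs, 43 had *elav* and 7 had *repo*, and *CG14645* with 4256 UMIs and *CG34220* also led them. In the NaAsO2 pair *whe* had 0.0583 CPM in males and 0 in females, and *Muc68D* 0.0292 and 0.0220 CPM, so the group was nearly absent from both. *lcs* (chrX:21396727-21397316) and *whe* (chrX:21402339-21402772) lie 5022 bp apart.

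Among neuropeptides and peptide hormones, single members differed in opposite directions. Of 36 that passed, 5 were 1.5-fold higher in females, beside 1.76% of all genes, and 11 in males, beside 10.5%, with a median of -0.11 beside -0.13 over all genes. *Ilp3*, an insulin-like peptide of the median neurosecretory cells, stood at 15.2 CPM in females and 4.81 CPM in males (1.66), and at 28.7 and 7.26 CPM in the NaAsO2 pair (1.98), and 10 nuclei held 70.1% of its female control UMIs, 183 of 809 in 1 nucleus. Of the other insulin-like peptides of these cells, *Ilp2* had ratios of -0.52 and 1.14 in the control and the NaAsO2 pair, and *Ilp5* -0.01 and 4.45. *Orcokinin* was at 640 and 294 CPM (1.12), with 1.49 in the NaAsO2 pair, and *Ms*, the myosuppressin gene, at 1115 and 688 CPM (0.70). The female sums of these, like that of *Ilp3*, rested on few nuclei, since 10 nuclei held 65.4% of the *Orcokinin* and 59.5% of the *Ms* UMIs, and with every nucleus scaled to the same total the ratios of *Orcokinin* and *Ms* were 0.054 and -0.31. *NPF*, a peptide of feeding and courtship circuits that is known for male-specific neurons, was at 59.3 and 355 CPM (-2.58), but at 81.8 and 29.9 CPM in the NaAsO2 pair (1.45). *Capa*, made in few neuroendocrine cells, was at 97.1 and 585 CPM (-2.59), and at 89.0 and 32.3 CPM in the NaAsO2 pair (1.46). In the male control library, 10 nuclei held 66.2% of *NPF* UMIs and 84.7% of *Capa* UMIs, 8239 of the latter in 1 nucleus.

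Ribosomal protein, mitochondrial and activity-dependent genes had median ratios of opposite sign in the control and the NaAsO2 pair. Of 83 ribosomal protein genes that passed, 82 lay below 0, as did 5242 of all 7992 genes. The ribosomal median was -0.49 in the control pair and 0.46 in the NaAsO2 pair. Of the 83 genes, 16 were 1.5-fold higher in males, beside 10.5% of all genes, and 0 in females. Autosomal genes of the shortest length group, up to 1465 bp, had medians of -0.40 and 0.30 in these pairs, and *RpL30* spans 1276 bp. The part of gene length in the ribosomal ratios was not tested. *RpL30* stood at 85.9 and 151 CPM in control females and males and at 118 and 73.8 CPM in the NaAsO2 pair. Of the mitochondrial genome, 4 of 5 genes were 1.5-fold higher in females, beside 1.76% of all genes, with a median of 0.72 in the control and -0.57 in the NaAsO2 pair. All 12 activity-dependent and ecdysone response genes lay above 0, as did 2750 of all 7992 genes. Their median was 0.30 over these 12 genes (-0.03 in the NaAsO2 pair). Of the 12, *br*, the X-linked ecdysone-induced transcription factor, at 491 and 309 CPM was the 1 past 1.5-fold (0.66). Of 12 clock genes 0 exceeded 1.5-fold, beside 1.76% of all genes toward females and 10.5% toward males. *per* (-0.52) and *Clk* (-0.54) were nearest to the 1.5-fold limit. Among detoxification genes, 9 of 34 cytochrome P450 genes were 1.5-fold higher in males and 1 in females, and of 18 glutathione S-transferase genes 6 and 0, beside 10.5% and 1.76% of all genes. *Cyp4d2* was at 6.24 and 24.0 CPM (-1.94) and higher in males in the NaAsO2 pair too (-2.02), while *Cyp6a23* was at 0.900 and 6.26 CPM (-2.80) and at 3.92 and 1.52 CPM (1.37). The esterase gene *Est-6*, known from the male reproductive tract, had 267 and 574 UMIs (-1.79), and stood at 8.62 and 4.23 CPM in the NaAsO2 pair (1.03). Without the nuclei of fat body, plasmatocyte and photoreceptor markers its control ratio was -0.44.

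Among single marker genes, the photoreceptor, fat body and plasmatocyte lists held most of those past 1.5-fold toward males, who were higher in 10.5% of all genes. Of 12 photoreceptor markers that passed, 8 were 1.5-fold higher in males, with a median of -2.15 in the control and 0.96 in the NaAsO2 pair. The opsin gene of the ocelli, *Rh2*, had 8478 female and 25436 male UMIs (-2.27), the arrestin gene *Arr2* a ratio of -2.46 and the channel gene *trp* -2.55. The opsin genes of the compound eye did not share this, with *ninaE*, the main opsin, at 0.41 and *Rh4* at 0.05. Of 5 fat body markers 4 were higher in males (*Nplp2* -2.80, *Obp99c* -2.29, *apolpp* -1.25), and of 4 plasmatocyte markers 3 (*Hml* -1.61). Each of the ensheathing, cortex and subperineurial glia lists had 1 marker past 1.5-fold toward males (-0.75, -0.70 and -0.64), and toward females *elav* and 1 muscle marker (0.86) passed it. Of the neuronal lists, at least 2 Kenyon cell markers were found in 22.7% of female and 23.4% of male nuclei, cholinergic markers in 7.18% and 6.93%, and GABAergic markers in 3.70% and 3.63%. Monoaminergic markers were found in 4.2% (3.91 to 4.51) of female and 5.12% (4.74 to 5.52) of male nuclei, and of the 7 genes 2 were 1.5-fold higher in males and 0 in females. The glutamatergic marker *VGlut* had a ratio of -0.32.

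The share of nuclei with *elav* differed between the sexes, and that with another neuronal gene did less so. After thinning, nuclei with *elav* and no *repo* made up 54.0% (53.3 to 54.8) of female and 41.8% (40.9 to 42.7) of male nuclei, those with *repo* and no *elav* 1.06% and 1.47%, those with both 1.06% and 0.761%, and those with neither 43.8% and 56.0%. Without thinning the *elav* share was 73.7% and 58.1%. *elav* is X-linked and had 45263 female and 18652 male UMIs (0.60), with 0.12 in the NaAsO2 pair. *nSyb*, an autosomal gene of the synaptic vesicle, had a ratio of 0.09 and was detected in 61.7% and 59.3% of thinned nuclei, or 83.8% and 83.4% at 2000 UMIs. Among thinned nuclei with at least 2 fat body markers, 48.2% in females and 34.9% in males fell in the *elav* class. The shares over all thinned nuclei were the 54.0% and 41.8% given above. Before thinning, these marker nuclei had medians of 2267 and 1909 UMIs. Since nuclei with fat body markers also fell in it, membership of the class is not read as neuronal identity. The part of the *elav* level and of free RNA in the shares was not tested.

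For part of the genes past 1.5-fold, the order of the sexes was shared with the NaAsO2 pair, which is made of other flies. Over 7878 X-linked and autosomal genes, the ratios of both pairs had a Spearman correlation of -0.10, a description across genes that share libraries. Of 7831 genes with enough UMIs in both pairs, 135 were 1.5-fold higher in control females, and 64 of them (47.4%) were so in the NaAsO2 pair, in which 13.8% of 7908 genes passed toward females. These 64 were 6.02% of the 1064 female-higher genes of that pair. Toward males, 64 of 768 (8.33%) were shared, or 37.9% of the 169 of the NaAsO2 pair, where 2.33% of 7908 genes passed toward males, and 204 (26.6%) were 1.5-fold higher in NaAsO2 females instead. Of the 64 genes higher in females in both pairs, 37 (57.8%) were X-linked, and of the 64 higher in males in both, 19 (29.7%), beside 17.3% of all 7831 genes. Of the 135 female-higher and 768 male-higher genes of the control pair, 73 (54.1%) and 114 (14.8%) were X-linked. Apart from genes given above, those higher in females in both included *Ant2*, an X-linked ADP/ATP carrier gene (1.33 and 0.86), *Cyp311a1* (1.27 and 1.14), *Trissin* (0.98 and 3.21) and *AstC* (0.75 and 2.78). Higher in males in both were *Muc14A* (-1.88 and -2.14), *Lk*, the leucokinin gene (-0.83 and -2.71), and *Ddc*, the dopa decarboxylase gene (-0.64 and -0.60).

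**Figure D5:**
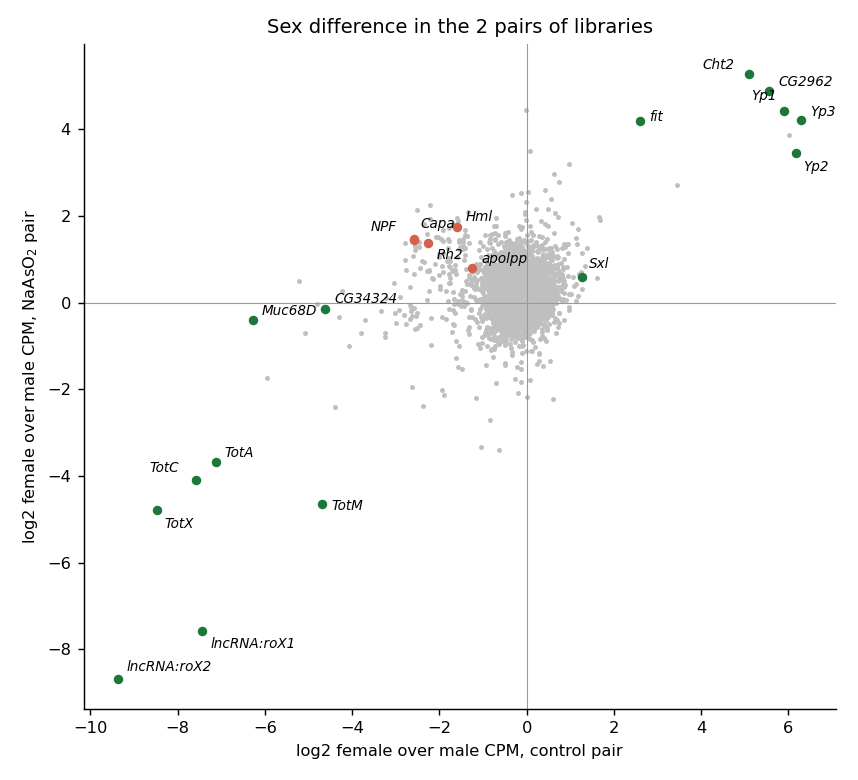
Log2 ratio of female over male CPM per gene in the control pair (horizontal) against the NaAsO2 pair (vertical). Grey points are genes with at least 200 UMIs over both control libraries that also had UMIs in all 4 libraries. Green points are some of the named genes. Orange points are *NPF*, *Capa*, *Rh2*, *Hml* and *apolpp*, which lie on opposite sides of 0 in the 2 pairs. *roX1*, *roX2*, the yolk protein genes, *CG2962* and *Cht2* lie far from 0 on the same side in both.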

How the data were processed

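Reads had been aligned by the authors to genome release 6 by means of Cell Ranger. The deposited files hold whole-number UMI counts for each gene in each nucleus, which were not normalized. The submitters' processing notes name Cell Ranger 3.1 and Seurat 3, while the matrix header names version 7.0.1, and whether intronic reads were counted is not given in the sources used here. Of 17772 gene identifiers, 17704 were found in RefSeq's annotation of release 6, the source of symbols, coordinates and lengths.

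Counts were summed per gene over all nuclei and over nuclei split by detection of *elav* and *repo*, and divided by the library or class total. The software was NumPy 2.4.6, pandas 2.3.3 and SciPy 1.17.1 under Python 3.11.15. Intervals of ratios are conditional binomial, those of CPM Poisson and those of shares Clopper-Pearson. With 1 library per group no test across samples was made. Doublets were kept. Scrublet (scanpy 1.11.5) marked 0 nuclei by its own threshold, so an alternative left out the 2945 female and 1775 male nuclei of highest score (0.8% per 1000 nuclei). Figures were drawn with matplotlib 3.10.9.

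Named were the members of the sex determination, dosage compensation, yolk protein and sex-biased gene lists and Y-linked genes past the minimum, the 10 highest and 10 lowest autosomal and the 5 highest and 5 lowest X-linked genes, the 5 highest and lowest in *elav* and in *repo* nuclei, and the 2 largest ratios of each other list. Other genes named were chosen after their values were seen. The members, lists and comparisons were chosen with earlier results of these data known. The sums and intervals were tested on simulated data for 7982 genes over all nuclei: 100% of 2-fold (93) and 4-fold (107) changed genes were recovered, 96.0% of intervals held the value put in, and an X shift of 0.2 came back as 0.200. The simulated counts were independent Poisson draws, the model that the intervals assume, so this checks the calculation only. UMIs concentrated in few nuclei, as for *Capa* or *TotA*, were not simulated, and the intervals do not cover that spread. A planned motif search in promoters was not run, since no promoter sequence was used here.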

Additional observations from a re-analysis of the deposited data

Results flagged for a closer look

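For 5 of the genes named by the rules above, the female and the male library of the control pair stood 1 way round and those of the NaAsO2 pair the other way, past 1.5-fold in both. Of 7831 genes, 204 of 768 higher in control males (26.6%) and 2 of 135 higher in control females (1.48%) turned in this way. In the NaAsO2 pair, 13.8% of 7908 genes passed 1.5-fold toward females and 2.33% toward males. The marker lists were not searched. Of 12 photoreceptor markers, 8 were past 1.5-fold toward males in the control pair and 7 toward females in the NaAsO2 pair. The shares of all genes were 10.5% and 13.8%. The difference between the pairs was not tested, since each sex and treatment had 1 library. *RpL30*, a ribosomal protein gene, had log2 ratios of female over male of -0.81 in the control and 0.68 in the NaAsO2 pair. *Cyp6a23* had -2.80 and 1.37, and *Est-6* -1.79 and 1.03. The peptide genes *NPF* and *Capa* had -2.58 and 1.45, and -2.59 and 1.46. With 1 library a group, no library could be examined for its distance from others of its group.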

How the results depend on the processing

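No paired analysis was possible because each group had 1 library and the labels carry no replicate numbers, and no library could be left out. The X minus autosome difference (0.16) cannot move when all genes are shifted alike (centring, TMM, means without scaling and other totals). It lay between 0.15 and 0.18 under the other alternatives but 1, and was 0.11 within length groups, an alternative added after the data were seen. The counts of genes at least 1.5-fold higher in females (141) and males (838) were 339 and 453 when centred on the median autosomal gene, 311 and 476 with TMM, 786 and 280 for means per nucleus without scaling, 89 and 521 with nuclei thinned, 313 and 1339 at a minimum of 50 UMIs, 61 and 397 at 1000, 1111 and 3113 at 1 UMI in each library, and 30 and 233 at 2-fold. Centring moved the median gene by 0.15 and TMM by 0.14. The X median (0.0037) was 0.16 centred, 0.15 with TMM, 0.32 without scaling, -0.025 without mitochondrial, rRNA and roX genes and 0.069 at 1000 UMIs. The autosomal median (-0.15) was 0, -0.013, 0.16, -0.18 and -0.11 under these, -0.12 with nuclei thinned, -0.19 at 1 UMI in each library and -0.14 with classes weighted equally in both sexes. In *elav* nuclei, centring gave 279 and 362 genes in place of 117 and 740. In *repo* nuclei (91 and 94 genes, X minus autosome 0.22), a minimum of 2 *repo* UMIs gave 18 and 9 genes and 0.39, and thinned nuclei 48 and 48 genes. The share of *elav* nuclei was 12.2 percentage points higher in females, 15.6 without thinning and 2.42 with *nSyb* in place of *elav*, also added afterwards. Nuclei with both genes differed by 0.303 points, 1.55 without thinning and 0.764 at 2000 UMIs, and those with neither by -12.1 and, without thinning, -16.5. *Ms* (0.70) was -0.31 once all nuclei carried equal weight and -0.30 with nuclei thinned. Of 58 named genes past 1.5-fold, 7 fell below it under at least 1 alternative, *RpL30*, *RpL34a*, *Mettl3*, *sxe2*, *Est-6*, *Orcokinin* and *Ms*, and 716 of 718 values had the sign of the ratio given above. Many of these signs were fixed beforehand. A changed UMI minimum leaves a gene's ratio as it is. Settings that shift all genes alike moved the median gene by at most 0.32, too little to turn a gene past 1.5-fold. The causes were not tested. Depth limits genes under 200 UMIs and *repo* nuclei, of which there were 273 and 313.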
